A study of Rattus norvegicus with 24 samples.

Results

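Bile acids are made from cholesterol in hepatocytes and leave the liver in bile, and the enzymes that make them are held in check by the bile acids themselves. In the classic pathway Cyp7a1 puts the first hydroxyl group on cholesterol and sets the rate, Hsd3b7 and Akr1d1 rework the sterol ring, Cyp8b1 steers the product to cholic acid, Cyp27a1 oxidises the side chain and Baat joins the finished acid to glycine or taurine; Cyp27a1 and Cyp7b1 also serve an alternative route through oxysterols. Bile acids bind the nuclear receptor FXR (gene Nr1h4), which switches on Nr0b2, the gene of the corepressor SHP, and SHP restrains Cyp7a1 and Cyp8b1. A second signal comes from the gut as a fibroblast growth factor and reaches the hepatocyte through the receptor Fgfr4. These 10 genes were followed here in rat liver. They were taken as the probe sets whose only gene symbol in the platform annotation is a member, which gave 1 probe set per gene and 10 genes of the 16856 that the array names on single-gene probe sets. All 10 passed the filter on dim probe sets.

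Each of 24 livers, 1 per array, came from an adult female F2 rat of the Sprague-Dawley stock. The chow line (GpatCD) descended from grandfathers fed chow and the HFD line (GpatHF) from grandfathers fed a high-fat diet (HFD). The females of either line then ate chow or an HFD for 12 weeks (the labels give its fat share as 42 and as 45% of energy), which gave 7 chow-line females on chow (GpatCD-CD), 6 chow-line females on the HFD (GpatCD-HF), 6 HFD-line females on chow (GpatHF-CD) and 5 HFD-line females on the HFD (GpatHF-HF). The sources used here do not give their exact age, the diet of the F1 parents, the litter or the hour of collection. The series asks whether a grandfather's diet and a female's own diet alter gene expression in her liver.

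Values are log2(signal + 16) of the deposited intensity, called log2 signal here, and a gene is called when limma's Benjamini-Hochberg adjusted p over the 15687 probe sets tested is under 0.05. The ± after a group mean is the SD over arrays and after a fold change the standard error. Median array signal ran from 97.9 to 128, and the mean of the array medians over the tested probe sets was 7.83 ± 0.08 in HFD-line females on the HFD against 7.96 in each of the other 3 groups, so fold changes that involve that group carry a small downward shift. Arrays 21 and 25 (GpatCD-CD), 22 (GpatCD-HF) and 24 (GpatHF-HF) stood apart from the other 20 on the second principal component, and several results are also given without them. The growth protocol speaks of gonadal fat while the labels say liver. The hepatocyte gene Alb had a mean log2 signal of 13.49, and the 5 adipocyte genes Cfd, Plin1, Retn, Adipoq and Lep had 7.06, 6.29, 6.25, 6.08 and 5.78, against a filter limit of 5.72. All 7 hepatocyte markers on the array passed the filter.

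Nr0b2, the gene of the corepressor SHP, was the 1 gene of the 10 that was called in any of the 7 contrasts fitted, and it was higher on the HFD. In chow-line females on chow its log2 signal ran from 7.70 to 9.56 with a median of 8.998. In chow-line females on the HFD it ran from 9.53 to 10.59 with a median of 10.02. In HFD-line females on chow it ran from 8.99 to 10.14 with a median of 9.48. In the 5 HFD-line females on the HFD it was 9.75, 9.80, 9.90, 10.26 and 10.97. The chow-fed and HFD-fed groups of the chow line overlapped by a single array on either side, since 5 of 6 HFD arrays lay above the highest chow array and 6 of 7 chow arrays lay below the lowest HFD array.

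**Figure D1:**
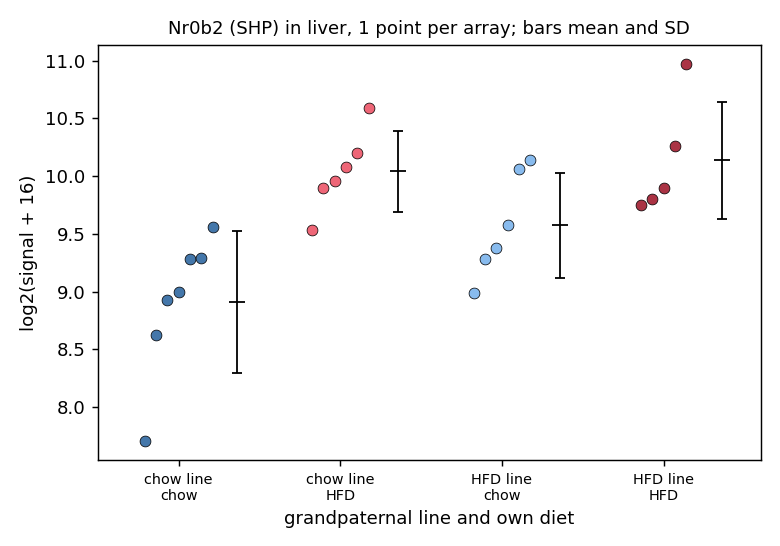
Nr0b2 log2 signal (vertical axis, log2(signal + 16)) in each of 24 livers, by grandpaternal line and own diet, with the mean and SD of each group beside the points. The chow line on chow sits lowest, between 7.70 and 9.56, and both HFD-fed groups lie at 9.53 or above.

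By group mean the order was 8.91 ± 0.61 (n = 7) in the chow line on chow, 9.57 ± 0.45 (n = 6) in the HFD line on chow, 10.04 ± 0.35 (n = 6) in the chow line on the HFD and 10.14 ± 0.51 (n = 5) in the HFD line on the HFD. The means of the last pair lay closer together than their SDs, and every neighbouring pair overlapped. Array 25 held the lowest value of all 24 and array 47 the highest.

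Own HFD raised Nr0b2 2.19-fold in the chow line (log2 1.13 ± 0.25, 95% confidence interval 0.62 to 1.64, adjusted p = 0.0354), with all 6 HFD arrays above the chow mean. It was the 1 of 10 members called there, where 0.319% of all tested probe sets were called in either direction, 0.0765% rose and 0.242% fell. Unadjusted p values under 0.05 were also held by 1 member, against 8.8% of probe sets. In bulk liver, fewer cells of a type and less RNA per cell cannot be told apart. The fold change lay between 0.93 and 1.24 under all 37 alternatives, but its adjusted p lay close to the threshold and the call was kept in 25 of them. It was lost without array 21 (adjusted p = 0.0688), 25 (0.061), 26 (0.0698), 29 (0.0687), 31 (0.0582), 32 (0.0692), 33 (0.13), 34 (0.0676) or 35 (0.1), with the robust variance estimate (0.0874) and without arrays 21, 22, 24 and 25 together (0.93 ± 0.22, adjusted p = 0.0719). With those 4 arrays as a block term in place of being left out, the value was 1.04 ± 0.20 (adjusted p = 0.012).

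The Nr0b2 difference in the HFD line was 0.56 ± 0.27 (95% confidence interval 0.01 to 1.12, adjusted p = 0.309), which did not pass, although all 5 HFD arrays lay above the chow mean. Without array 47, the highest of all, the difference was 0.35. After quantile normalization it was 0.71 and after median centring 0.63. Over all 37 alternatives it lay between 0.35 and 0.78, and it was called in 0 of them. The lines were not shown to differ, as the interaction was -0.57 ± 0.37 (95% confidence interval -1.32 to 0.19, adjusted p = 0.61). It was -0.37 without array 25 and -0.27 ± 0.31 without arrays 21, 22, 24 and 25. Averaged over the lines, own HFD raised Nr0b2 1.80-fold (log2 0.85 ± 0.18, adjusted p = 0.0109), and this call held under all 36 alternatives, with fold changes of 0.74 to 0.91 and adjusted p of 0.000974 to 0.0248. Without arrays 21, 22, 24 and 25 the averaged rise was 0.80 ± 0.16 (adjusted p = 0.00765). Nr0b2 was again the 1 of 10 members called, where 1.99% of probe sets were called, 0.363% upward and 1.63% downward. Unadjusted p values under 0.05 were held by 2 members (Nr0b2 and Hsd3b7), against 13.3% of probe sets.

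On chow, Nr0b2 was 0.66 ± 0.25 higher in the HFD line than in the chow line (95% confidence interval 0.15 to 1.17, unadjusted p = 0.013), with all 6 HFD-line arrays above the chow-line mean. It did not pass over all probe sets (adjusted p = 0.491), and without arrays 21, 22, 24 and 25 the difference was 0.36 ± 0.21. On the HFD the lines differed by 0.09 ± 0.27 in Nr0b2 (95% confidence interval -0.46 to 0.65), and by -0.05 with array weights. The 2 grandpaternal comparisons use the same arrays as the own-diet comparisons, so the low level of chow-line females on chow enters both the own-diet value of 1.13 and the grandpaternal value of 0.66.

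The start of Nr0b2 is shown because it is the member that moved, and that of Cyp8b1 because it is a gene SHP is known to restrain. Both are the 250 bases before the RefSeq start of the gene in build GRCr8, read 5′ to 3′ on the gene's own strand; capitals mark TCAAGG, the core of the site of the orphan receptor LRH-1 (gene Nr5a2), which is known to bind the Nr0b2 promoter, and the TATA box TATAAA.
Nr0b2, chr5:151062910-151063159, plus strand: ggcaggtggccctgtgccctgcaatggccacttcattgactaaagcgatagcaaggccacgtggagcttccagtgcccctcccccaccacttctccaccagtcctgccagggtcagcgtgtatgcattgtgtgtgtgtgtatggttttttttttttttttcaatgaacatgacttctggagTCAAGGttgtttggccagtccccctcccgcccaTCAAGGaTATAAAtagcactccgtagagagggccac
Cyp8b1, chr8:130457593-130457842, minus strand: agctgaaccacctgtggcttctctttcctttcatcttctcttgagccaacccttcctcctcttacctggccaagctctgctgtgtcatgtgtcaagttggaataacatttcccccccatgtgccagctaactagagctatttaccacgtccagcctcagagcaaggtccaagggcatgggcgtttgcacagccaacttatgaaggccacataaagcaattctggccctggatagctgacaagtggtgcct

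Of the 10 genes, 6 had an entry in the promoter table (Nr0b2, Cyp8b1, Cyp27a1, Hsd3b7, Baat and Fgfr4). TCAAGG, searched on both strands, occurred in Nr0b2 alone, at 69 to 64 and 36 to 31 bases before the start, and TATAAA followed at 29 to 24 bases, with no overlap. Of 33469 promoter windows of this length, 12.6% held TCAAGG at least once, 0.98% at least 2 times, and 12.9% held TATAAA, on either strand. Only these exact letters were searched, so other forms of an LRH-1 site were neither counted nor marked. The printed Cyp8b1 window holds CCAAGG, for example. The search thus does not tell which of the genes lack an LRH-1 site. A match describes letters and shows no binding.

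No change was called in the receptors of the feedback. Nr1h4, the gene of FXR, had log2 signals of 10.16 to 10.86 (median 10.46) in the chow line on chow and 10.39 to 10.92 (median 10.51) on the HFD. In the HFD line it ran from 10.38 to 10.83 (median 10.61) on chow and was 9.96, 10.09, 10.32, 10.61 and 10.64 on the HFD. The 4 groups overlapped broadly. Own HFD changed Nr1h4 by 0.07 ± 0.12 in the chow line and by -0.27 ± 0.13 in the HFD line (adjusted p = 0.944 and 0.32), and the latter was -0.13 after quantile normalization.

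Fgfr4, the receptor for the signal from the gut, lay between 9.05 and 9.82 on all 24 arrays. Its group medians were 9.73, 9.53, 9.57 and 9.54 in the order chow line on chow, chow line on the HFD, HFD line on chow and HFD line on the HFD. The lowest of all Fgfr4 values was on array 21. The own-diet differences were -0.11 ± 0.11 and -0.07 ± 0.12 in the chow and the HFD line, with 95% confidence intervals of -0.32 to 0.11 and -0.30 to 0.17, and the second was 0.07 after quantile normalization.

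Cyp7a1, the rate-setting enzyme, showed no difference between groups that exceeded its spread. Its log2 signal was 11.49 to 12.51 (median 12.04) in the chow line on chow and 11.41 to 12.10 (median 11.83) on the HFD. In the HFD line it ran from 10.41 to 12.89 (median 11.86) on chow and was 11.61, 11.77, 11.97, 12.19 and 12.45 on the HFD. Chow-fed females of the HFD line spread far more than the others, with an SD of 0.83 against 0.26 to 0.33. In that group array 42 held the lowest and array 38 the highest value of both Cyp7a1 and Nr0b2.

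Own HFD changed Cyp7a1 by -0.25 ± 0.24 in the chow line (95% confidence interval -0.75 to 0.25, adjusted p = 0.857) and by 0.13 ± 0.27 in the HFD line (-0.42 to 0.68, adjusted p = 0.83). The interval in the chow line holds falls of up to 0.75 and smaller rises. The grandpaternal differences were -0.19 ± 0.24 on chow and 0.19 ± 0.27 on the HFD (adjusted p = 0.841 and 0.758). The averaged own-diet difference was -0.06 ± 0.18 (95% confidence interval -0.43 to 0.31). Without array 42 the HFD-line value was -0.16 and the grandpaternal value on chow 0.10, and without array 38 the averaged own-diet value was 0.042, so these uncalled signs turned with 1 array.

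**Figure D2:**
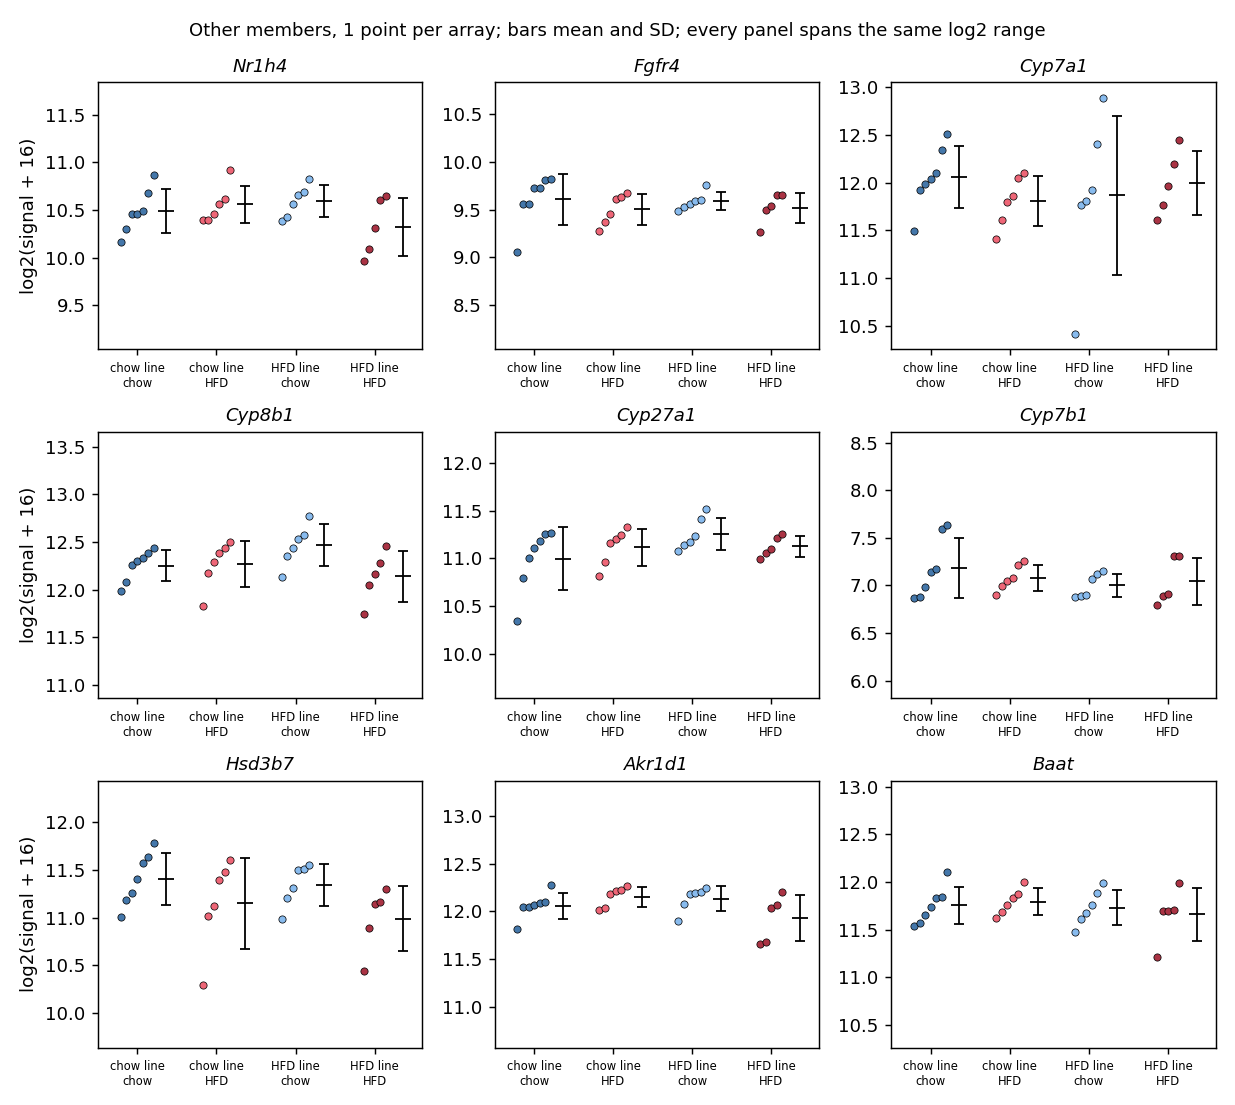
Log2 signal (vertical axes, log2(signal + 16)) of the other 9 genes in each of 24 livers by line and own diet, with group means and SDs; all panels span the same log2 range but are centred on their own gene. The groups overlap for every gene, and Cyp7a1 in HFD-line females on chow spreads the most, from 10.41 to 12.89.

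Cyp8b1, the 12-alpha-hydroxylase that makes cholic acid, had no called change, with group SDs of 0.16 to 0.27. Its log2 signal was 11.98 to 12.44 (median 12.30) in the chow line on chow, 11.83 to 12.50 (median 12.34) in the chow line on the HFD and 12.14 to 12.78 (median 12.48) in the HFD line on chow. In the HFD line on the HFD it was 11.74, 12.05, 12.16, 12.28 and 12.46. All 5 of those arrays lay below the mean of the HFD line on chow, yet the ranges overlapped. The HFD-line difference was -0.33 ± 0.13 (unadjusted p = 0.0142, adjusted p = 0.208), against 0.02 ± 0.12 in the chow line (-0.07 after quantile normalization). After quantile normalization the HFD-line value was -0.22 (unadjusted p = 0.0551), and the interaction was -0.35 ± 0.17 as deposited and -0.14 after quantile normalization (adjusted p = 0.519 and 0.931). Without arrays 21, 22, 24 and 25 the interaction was -0.18.

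Cyp27a1, the mitochondrial side-chain hydroxylase, had group means of 11.00 ± 0.33 (n = 7), 11.12 ± 0.19 (n = 6), 11.26 ± 0.17 (n = 6) and 11.13 ± 0.11 (n = 5) in the same order of groups. On chow it was 0.26 ± 0.12 higher in the HFD line (unadjusted p = 0.0363, adjusted p = 0.518), with all 6 HFD-line arrays above the chow-line mean. That value was 0.16 without array 21, the lowest of all for Cyp27a1, and 0.14 ± 0.10 without arrays 21, 22, 24 and 25. On the HFD the lines differed by 0.01 ± 0.13. Own-diet differences in Cyp27a1 were 0.12 ± 0.12 and -0.13 ± 0.13 in the chow and the HFD line.

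Cyp7b1, the oxysterol hydroxylase of the alternative route, had log2 signals of 6.80 to 7.63. Its chow-line arrays on chow reached 7.63, and no HFD-line array on chow was above 7.15. The grandpaternal difference on chow was -0.18 ± 0.12 (adjusted p = 0.671), and the own-diet differences were -0.10 ± 0.12 and 0.04 ± 0.13. A true change of a dim probe set is understated on this scale.

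The ring-modifying enzymes Hsd3b7 and Akr1d1 had lower means on the HFD in the HFD line without a call. Hsd3b7, which oxidises the 3-beta-hydroxyl group, went from 11.41 ± 0.27 (n = 7) to 11.15 ± 0.48 (n = 6) in the chow line and from 11.34 ± 0.22 (n = 6) to 10.99 ± 0.34 (n = 5) in the HFD line. All 5 HFD arrays of the HFD line lay below that line's chow mean, and 4 of 6 did so in the chow line. The averaged difference was -0.30 ± 0.13 (unadjusted p = 0.0231, adjusted p = 0.263), and -0.26 after quantile normalization.

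Akr1d1, the 5-beta-reductase that bends the ring system, was 11.81 to 12.28 in the chow line on chow and 12.02 to 12.26 on the HFD, and 11.90 to 12.24 in the HFD line on chow. In the HFD line on the HFD it was 11.66, 11.68, 12.03, 12.06 and 12.20, with arrays 45 and 44 the low pair. The own-diet difference was 0.10 ± 0.09 in the chow line and -0.20 ± 0.09 in the HFD line, and the interaction was -0.30 ± 0.13 (unadjusted p = 0.026, adjusted p = 0.454). After quantile normalization these values were 0.012, -0.094 (unadjusted p = 0.277) and -0.11, and the lower median signal of this group moves with the deposited values.

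For Baat, which conjugates bile acids, no contrast had an unadjusted p under 0.05. Its group means were 11.75 ± 0.20 (n = 7), 11.79 ± 0.14 (n = 6), 11.73 ± 0.19 (n = 6) and 11.66 ± 0.28 (n = 5). Array 45 was low at 11.21. The own-diet differences were 0.04 ± 0.11 in the chow line (95% confidence interval -0.18 to 0.26) and -0.07 ± 0.12 in the HFD line (-0.31 to 0.17), or -0.03 and 0.07 after quantile normalization.

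**Figure D3:**
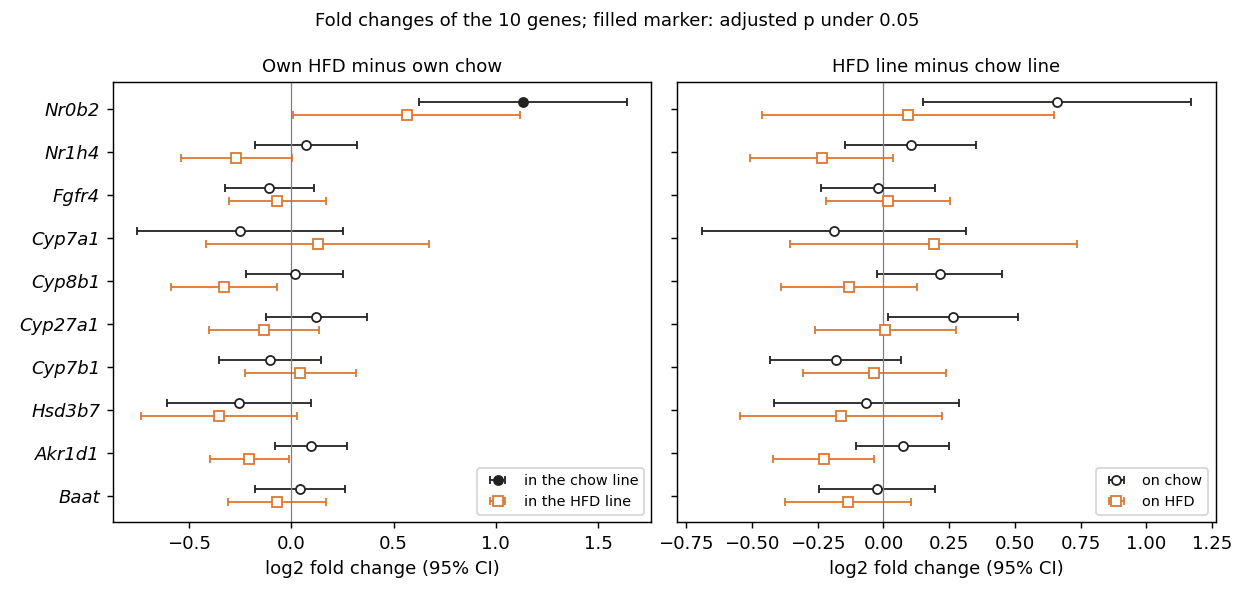
Log2 fold changes of the 10 genes with 95% confidence intervals (horizontal axes), own HFD minus own chow on the left and HFD line minus chow line on the right; filled markers passed the adjusted threshold. Nr0b2 in the chow line, at 1.13, is the only filled marker, and the intervals of all enzymes but Cyp8b1 and Akr1d1 in the HFD line, Cyp27a1 on chow and Akr1d1 on HFD include 0.

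Counted over the 10 genes, own HFD in the HFD line called 0 members, where 0.752% of probe sets were called (0.0956% rose and 0.657% fell), and 3 members had an unadjusted limma p under 0.05 (Nr0b2, Cyp8b1 and Akr1d1), where 15.8% of probe sets did. The median over the members was -0.10 and over all probe sets -0.09, and after quantile normalization 0.04 and -0.0028. Grandpaternal diet called 0 members and 0 probe sets on chow, on the HFD and on average, each 0% of those tested. The unadjusted count was 2 members on chow (Nr0b2 and Cyp27a1), where 9.15% of probe sets had such a p, and 1 on the HFD (Akr1d1), where 11% did. The interaction called 0, with 1 unadjusted (Akr1d1), where 9.71% did. With so few of 10 members against such shares, nothing is read from these counts. The average of the grandpaternal differences likewise had 1 unadjusted, where 11% did (Nr0b2, 0.38 ± 0.18, adjusted p = 0.453, and 0.22 ± 0.16 without arrays 21, 22, 24 and 25).

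Across arrays, no inverse relation between Nr0b2 and Cyp7a1 was found. On deviations from the group means of array-centred log2 signal, Nr0b2 and Cyp7a1 correlated at Pearson r = 0.318 over 24 arrays (permutation p = 0.124, adjusted p = 0.496 over 4 pairs) and Spearman rho = 0.343 (permutation p = 0.121, adjusted p = 0.262). Without the pair of arrays farthest from the Nr0b2 median (25 and 47) r was 0.454, and without arrays 21, 22, 24 and 25 it was 0.470 (permutation p = 0.0767, adjusted p = 0.307). The sign was positive under each of the 6 alternatives, but none of them left out arrays 38 and 42 for these genes. Their deviations in Nr0b2 and Cyp7a1 were 0.58 and 1.04 on array 38 and -0.56 and -1.43 on array 42. Both arrays pull r upward, and how far the positive r rests on them was not tested.

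Nr0b2 and Cyp8b1 correlated at r = 0.165 (permutation p = 0.407, adjusted p = 0.543) and rho = 0.144 (permutation p = 0.523, adjusted p = 0.526), with r = 0.175 without arrays 25 and 47. Nr0b2 and Nr1h4 gave r = 0.105 (permutation p = 0.623, adjusted p = 0.623) and rho = 0.143 (permutation p = 0.526, adjusted p = 0.526), and r = 0.118 without that pair. Cyp7a1 and Cyp8b1 gave r = 0.250 (permutation p = 0.333, adjusted p = 0.543) and rho = 0.344 (permutation p = 0.131, adjusted p = 0.262), and r = 0.182 without arrays 38 and 42. Without arrays 21, 22, 24 and 25 these 3 values were 0.284, 0.146 and 0.200. All tests were two-sided, drew 100000 permutations within groups, and 0 of the 4 pairs passed.

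**Figure D4:**
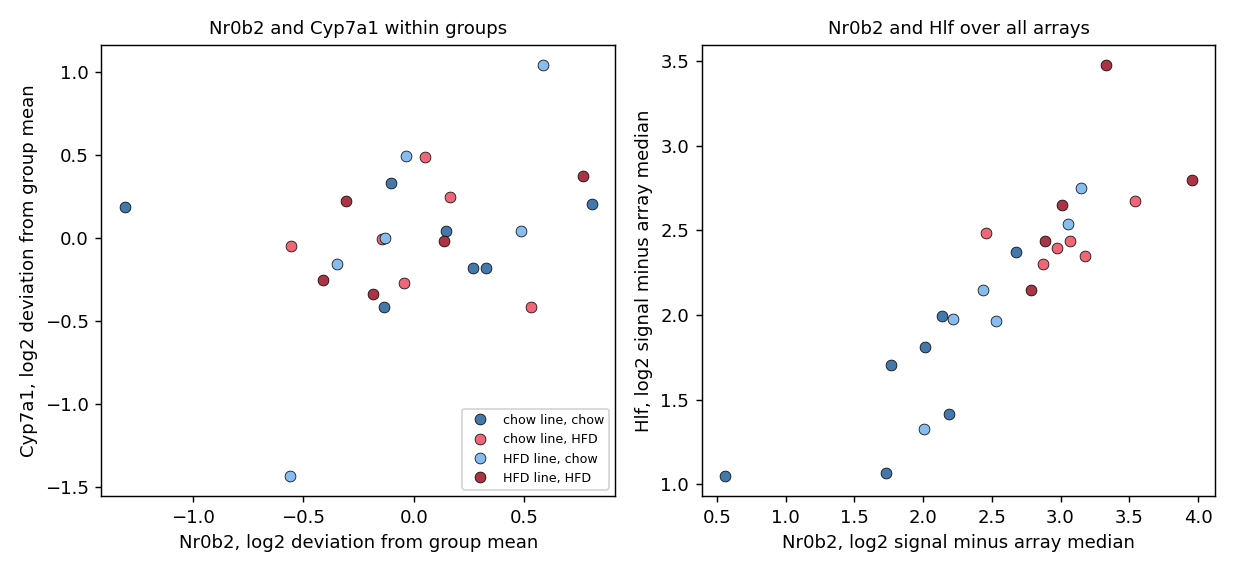
Left, Nr0b2 (horizontal) against Cyp7a1 (vertical) as log2 deviations from the group mean, 1 point per array; right, Nr0b2 against Hlf as log2 signal minus the array median. The left panel shows no downward slope (r = 0.318), and in the right panel the points rise together (r = 0.864), with a chow-line female on chow (array 25) at the lower left.

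The genes whose pattern over the 24 arrays was most like that of Nr0b2, among 13789 single-gene probe sets of array-centred signal, were Hlf (r = 0.864), Sema4g (0.852), Foxo3 (0.816), Cebpa (0.802) and Ribc1 (0.797). Hlf encodes a clock-driven transcription factor of the PAR bZIP family, Foxo3 a forkhead factor and Cebpa a factor of hepatocyte identity. On deviations from the group means, pooled over all groups, r for the same genes was 0.717, 0.808, 0.741, 0.837 and 0.631. These genes were picked by their r over the same 24 arrays, so the pooled values are not separate evidence of likeness. No group was examined alone. For Cyp7a1 the most alike were Ugt2b (0.701), Osbpl11 (0.657), Pdhb (0.645), Styxl1 (0.634) and Rmdn1 (0.625). Ugt2b had a log2 signal of 4.38 on 1 array of the HFD line on chow, against a median of 11.91 in that group. These are descriptions of the top of a long ranking over arrays that share processing.

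Hlf stands at the top of that ranking and belongs to the clock genes, which cycle over the day. Of 9 clock genes tested, 2 rose on the HFD averaged over the lines, where 0.363% of probe sets rose. The median of the 9 was 0.39 against -0.03 over all probe sets, with 6 above 0 and 3 below. Those below were Bmal1 (-0.61), Npas2 (-0.13) and Cry1 (-0.08), none called. An unadjusted limma p under 0.05 was held by 5 of the 9, where 13.3% of probe sets had such a p. Per2, a repressor of the clock, rose by 0.99 (adjusted p = 0.00734). Hlf rose by 0.66 (adjusted p = 0.0292) in log2 signal, from 8.68 ± 0.48 (n = 7) to 9.47 ± 0.16 (n = 6) in the chow line and from 9.12 ± 0.50 (n = 6) to 9.64 ± 0.50 (n = 5) in the HFD line. Its call was lost without array 27, 33, 37, 42 or 44 (adjusted p = 0.0508 to 0.0655).

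Within single lines no clock gene passed. Per2 was at 0.84 and 1.13 in the chow and the HFD line (adjusted p = 0.314 and 0.0692) and Hlf at 0.79 and 0.52 (adjusted p = 0.161 and 0.289). For grandpaternal diet the smallest p values were those of Hlf (0.45) and Npas2 (-0.51) on chow and of Bmal1 (-0.88) and Npas2 (-0.57) on the HFD, none passing. The part of the clock genes in the Nr0b2 rise was not tested.

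Of 13 other genes of bile acid synthesis on tested probe sets, 0 passed limma's threshold in any contrast, and an unadjusted p under 0.05 was held by 3 for own diet averaged over the lines (13.3% of all probe sets), 4 for own diet in the HFD line (15.8%) and 4 for the interaction (9.71%). Their median was 0.08 for own diet in the chow line and -0.10 in the HFD line, against 0.01 and -0.09 over all probe sets. Slc27a5, the ligase that activates bile acids before conjugation, was the nearest, at -0.42 on the HFD in the HFD line (adjusted p = 0.099, and 0.321 after quantile normalization) and 0.39 for grandpaternal diet on chow (adjusted p = 0.448). Fdx1, the ferredoxin that feeds electrons to mitochondrial cytochromes such as Cyp27a1, was at -0.47 in the HFD line (adjusted p = 0.177). Por, the reductase that serves the microsomal cytochromes, was at 0.35 for own diet in the chow line and 0.37 for grandpaternal diet on chow. Akr1c14, a 3-alpha-hydroxysteroid dehydrogenase, was at 0.12 in the chow line and at -0.16 for grandpaternal diet on the HFD. Cyp39a1, an oxysterol hydroxylase, was at -0.28 in that last comparison and -0.14 after quantile normalization.

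Of 14 regulators, among them the receptors LRH-1, LXR and HNF4A, 0 passed limma's threshold in any contrast, with an unadjusted p under 0.05 in 1 for the averaged own diet (13.3% of all probe sets) and in 4 for grandpaternal diet on the HFD (11%). Their median was 0.15 for own diet in the chow line and -0.11 in the HFD line, against 0.01 and -0.09 over all probe sets. After quantile normalization the medians of the regulators were 0.11 and 0.02. Nr1i3, the gene of the xenobiotic receptor CAR, had the smallest p and was at 0.57 on the HFD in the chow line (adjusted p = 0.232), -0.25 in the HFD line and -0.53 for grandpaternal diet on the HFD (adjusted p = 0.415). Hnf4a was at 0.18 for own diet in the chow line and 0.16 for grandpaternal diet on chow, and Rxra, the partner of FXR, at 0.17 in the latter. Nr1h2, the gene of LXR beta, was at -0.24 for own diet in the HFD line. Prox1, a corepressor known to act on Cyp7a1, was at -0.30 for grandpaternal diet on the HFD. None of these passed.

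Of 7 transporters of bile salts and sterols on tested probe sets, 1 fell, where 0.657% of probe sets fell in the HFD line and 1.63% on average, and their median for the averaged own diet was -0.16 against -0.03 over all. Abcc3, which exports bile salts and conjugates across the sinusoidal membrane, fell by 0.70 in the HFD line (adjusted p = 0.0327), from 7.78 ± 0.12 (n = 6) to 7.08 ± 0.31 (n = 5), and by 0.56 averaged over the lines (adjusted p = 0.00348). The HFD-line call was lost after quantile normalization (adjusted p = 0.0719) and without any 1 of arrays 24, 37, 38, 39, 41, 44, 45 and 46 (0.0523 to 0.0922) or without arrays 21, 22, 24 and 25 (0.0886), while the averaged call held under every alternative run. In the chow line Abcc3 was at -0.42 (adjusted p = 0.35), and for grandpaternal diet on chow at 0.31. Abcb4, which flips phospholipid into bile, was at -0.57 in the HFD line (adjusted p = 0.0865) and -0.51 for grandpaternal diet on the HFD. Slc10a1, which takes bile salts up from blood, was at 0.12 in the chow line and -0.21 for grandpaternal diet on the HFD, and Abcg5 was at 0.56 for grandpaternal diet on chow, none passing.

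Markers of another cell type moved with the own diet. Each of 7 markers of Kupffer cells, the macrophages of the liver, had a negative own-diet value in the chow line (median -0.65), and Marco fell (-1.30, adjusted p = 0.0028), 1 of 7 where 0.242% of probe sets fell. Marco also fell in the HFD line (-1.03, adjusted p = 0.0361), a call lost in 10 alternatives, among them leaving out array 24 (0.0655) or 45 (0.12). Averaged over the lines, 3 of 7 fell, where 1.63% of probe sets did: Marco (-1.16, adjusted p = 6.93e-05), Cd5l (-0.70, adjusted p = 0.00731) and Vsig4 (-0.55, adjusted p = 0.0393), the last lost without arrays 21, 22, 24 and 25 (0.0988) and without any 1 of arrays 22, 24, 25, 26, 27, 28, 34, 35, 37, 38, 40, 41, 42, 44, 45 and 46 (0.0503 to 0.0808). All 7 had an unadjusted p under 0.05 there. Their summed signal was 3475 to 6257 on chow and 1947 to 3514 on the HFD in the chow line, and 2991 to 5350 and 2639 to 4229 in the HFD line. The dimmest of the 7 was Marco, with a mean log2 signal of 6.50. It ran from 5.26 to 7.57 over the arrays, so its lowest value lay under the filter limit of 5.72. Summed hepatocyte markers ran from 48415 to 57763 and from 55491 to 59326 in the chow line on chow and on the HFD. In that line 7 of 7 had a fold change above 0, none called, and a median of 0.16 that was -0.0073 after quantile normalization. Quantile normalization ties the brightest probe sets to values set by their rank, so it can hide a change in such genes. Alb and Tf, with mean log2 signals of 13.49 and 13.42, were at 0.010 and -0.010 after it. After median centring they were at 0.21 and 0.18. An unadjusted limma p under 0.05 was held by 5 of the 7 hepatocyte markers as deposited, where 8.8% of probe sets had such a p. In the HFD line 7 of 7 hepatocyte markers were below 0 (median -0.04), 0 of them with such a p. The part of these markers in the Nr0b2 rise was not tested. Summed lymphocyte markers ran from 201 to 302 on chow and from 161 to 226 on the HFD in the chow line, 0 of 3 called and 1 with an unadjusted p under 0.05. Summed bile duct, stellate, endothelial and adipocyte markers overlapped between diets in the chow line, and in that line limma called 0 of these markers, with 1 unadjusted p under 0.05. Among other markers, 1 of 4 bile duct genes fell, where 0.657% of probe sets fell in the HFD line and 1.63% on average. This was Epcam, on the HFD in the HFD line (-0.76, adjusted p = 0.0139) and on average (-0.55, adjusted p = 0.0033). Epcam was dim, with a mean log2 signal of 6.38 and a lowest value of 5.65, under the filter limit of 5.72. Its HFD-line call was lost with quantile normalization and without arrays 21, 22, 24 and 25 (0.0611). The averaged values of Krt19, Krt7 and Sox9 were 0.03, 0.07 and -0.02, none called. The acinar gene Cpa1, at 7.13 to 12.98 in log2 signal over the arrays, fell on average (-1.43, adjusted p = 0.0263). It was 1 of 3 acinar genes tested, where 1.63% of probe sets fell. Cel and Cela1 were at -0.07 and -0.03, not called, and Prss1 and Pnlip did not pass the filter. The Cpa1 call was lost without arrays 21, 22, 24 and 25 (0.136), with robust eBayes (0.0656) and without array 24 (0.0558) or 42 (0.0507).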

How the data were processed

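Total RNA (200 ng) from liver was hybridised to Affymetrix whole-transcript arrays per the labels' protocols. Each probe set has 1 linear intensity, as the authors deposited it; the submitters' processing notes name Expression Console (Affymetrix) and PLIER, with no version or normalization option. From it log2(intensity + 16) was computed with no further normalization, the dimmest 25% of 20917 probe sets were left out (5230), and 15687 entered the limma 3.58.1 model (R 4.3.3; 4 group means, 24 arrays, eBayes with an intensity trend, two-sided p-values, Benjamini-Hochberg over all probe sets). The fit was tested on simulated data. The number of arrays limits the precision. Every array was taken as a separate animal; related or technically shared samples would make p-values too small, since these measure only the spread between arrays. Groups came from the sample titles.

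Gene symbols are those of the array's annotation table, renewed by Entrez identifier from RefSeq GRCr8 (18052 of 18197 single-gene probe sets matched). List genes without a single-gene probe set (among them Scp2, Fdxr, Klb, Abcb11, Slco1a1, Abcc2, Nr1d1, Nr1d2, Ciart and some markers) were not analysed here. The genes named were all members, list and marker genes past the threshold, the 2 with the smallest p per list and single contrast, and the 5 most like Nr0b2 and Cyp7a1. Members, lists and settings were chosen with earlier results of these data known. Alternatives were quantile normalization, median centring, offsets of 1 and 50, no filter or the lowest 50% left out, no trend, the robust option, array weights, a fit of the compared groups alone, arrays 21, 22, 24 and 25 omitted or as a block, and each array omitted in turn; quantile normalization without those 4 arrays was added after seeing the data.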

Additional observations from a re-analysis of the deposited data

Results flagged for a closer look

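Fgfr4 in chow-line females on chow had 1 array far from the others. Array 21 was at a log2 signal of 9.053, while the other 6 arrays of that group lay between 9.562 and 9.821, so the gap was 0.663 of the range of the group. Of the 40 sets of member and group examined in this way it was the only 1 past the limit, and chance passes about 1 in 20. Array 21 is also among the 4 arrays that stood apart on the second principal component. After quantile normalization it was still the lowest of its group for Fgfr4, but by a narrower gap. It was then at 9.22, and the other 6 arrays ran from 9.47 to 9.79.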

How the results depend on the processing

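The number of called members was 1 for own diet in the chow line, and 0 with robust eBayes, without arrays 21, 22, 24 and 25, and with quantile normalization without these arrays; it was 0 to 1 when each array was left out. The other 6 counts kept their value under every alternative run, no called value of a member changed sign, and the 4 correlations kept their sign and passed under none of the 6 alternatives. Over all probe sets, own diet in the chow line called 50, against 89 after quantile normalization, 79 after centring and 95 with array weights. In the HFD line it called 118, against 186 with array weights, 77 without the 4 arrays and 66 with quantile normalization besides. The averaged own diet called 312, against 581 with array weights, and the averaged grandpaternal diet called 0, against 54 with array weights, 4 with robust eBayes or the lowest 50% left out and 2 without the 4 arrays or with them as a block. Grandpaternal diet on chow called 0, against 1 after quantile normalization. No paired analysis was possible because the groups share no replicate number. With 5 to 7 arrays a group, standard errors of 0.24 to 0.27 for Nr0b2 and Cyp7a1 in single-line comparisons limit what could be called.

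Some fold changes that passed neither as reported nor under the alternative had the other sign there; the cause was not tested. After quantile normalization these were Cyp8b1 (-0.075) and Baat (-0.028) for own diet in the chow line, Cyp27a1 (0.012), Baat (0.070) and Fgfr4 (0.072) for own diet in the HFD line, Cyp8b1 (0.0083), Cyp7b1 (0.056) and Baat (0.018) for grandpaternal diet on the HFD, Hsd3b7 (0.088) and Baat (0.098) for the interaction, Cyp27a1 (0.048), Cyp7b1 (0.012) and Baat (0.021) for averaged own diet and Nr1h4 (0.0019) and Fgfr4 (0.059) for averaged grandpaternal diet. With array weights these were Cyp8b1 (-0.025) for own diet in the chow line, Nr0b2 (-0.045) and Cyp27a1 (-0.018) for grandpaternal diet on the HFD and Cyp7b1 (0.0010) and Baat (0.029) for averaged own diet. Without arrays 21, 22, 24 and 25 these were Cyp8b1 (-0.049), Cyp27a1 (-0.032) and Cyp7b1 (0.0067) for own diet in the chow line, Cyp7b1 (-0.023) for own diet in the HFD line, Baat (0.066) for grandpaternal diet on chow, Cyp8b1 (0.015) for grandpaternal diet on the HFD and Cyp7b1 (-0.030) and Hsd3b7 (0.075) for the interaction. With quantile normalization and without these 4 arrays these were Cyp8b1 (-0.15), Cyp27a1 (-0.065) and Cyp7b1 (0.056) for own diet in the chow line, Fgfr4 (0.12) for own diet in the HFD line, Baat (0.021) for grandpaternal diet on chow, Cyp8b1 (0.14) and Hsd3b7 (0.0039) for grandpaternal diet on the HFD, Cyp8b1 (0.0087), Cyp27a1 (0.054), Cyp7b1 (-0.016) and Hsd3b7 (0.22) for the interaction, Cyp7b1 (0.048) and Baat (0.013) for averaged own diet and Fgfr4 (0.027) for averaged grandpaternal diet. After centring each array these were Baat (0.017) and Fgfr4 (0.019) for grandpaternal diet on chow, Cyp7b1 (0.050) for grandpaternal diet on the HFD, Cyp27a1 (0.035), Cyp7b1 (0.011) and Baat (0.026) for averaged own diet and Fgfr4 (0.061) for averaged grandpaternal diet. With these 4 arrays as a block term these were Baat (0.053) for grandpaternal diet on chow, Cyp27a1 (0.0020) for averaged own diet and Cyp7a1 (-0.020) for averaged grandpaternal diet. For own diet in the chow line the ranges with 1 array left out were -0.00036 to 0.13 in Nr1h4 and -0.031 to 0.10 in Cyp8b1. For own diet in the HFD line the ranges with 1 array left out were -0.16 to 0.33 in Cyp7a1, -0.023 to 0.11 in Cyp7b1 and -0.15 to 0.042 in Baat. For grandpaternal diet on chow the ranges with 1 array left out were -0.39 to 0.10 in Cyp7a1, -0.13 to 0.0057 in Hsd3b7, -0.074 to 0.036 in Baat and -0.11 to 0.014 in Fgfr4. For grandpaternal diet on the HFD the ranges with 1 array left out were -0.12 to 0.20 in Nr0b2, -0.053 to 0.049 in Cyp27a1, -0.10 to 0.028 in Cyp7b1 and -0.028 to 0.081 in Fgfr4. For the interaction the ranges with 1 array left out were -0.27 to 0.041 in Hsd3b7, -0.19 to 0.00091 in Baat and -0.0071 to 0.13 in Fgfr4. For averaged own diet the ranges with 1 array left out were -0.21 to 0.042 in Cyp7a1, -0.059 to 0.025 in Cyp27a1, -0.063 to 0.0079 in Cyp7b1 and -0.056 to 0.041 in Baat. For averaged grandpaternal diet the ranges with 1 array left out were -0.10 to 0.15 in Cyp7a1, -0.0028 to 0.091 in Cyp8b1 and -0.048 to 0.030 in Fgfr4.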
